A study of Mus musculus with 6 samples.

Results

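Expression and splicing of 10 genes of the machinery that selects the 3′ splice site were examined in mouse hippocampus, out of 52550 genes in the deposited count table. The 10 genes were taken from a list of names: U2af1, U2af2, Sf1 and Puf60, whose proteins bind the 3′ end of introns, Sf3a1, Sf3b1, Sf3b2 and Sf3b3, which encode subunits of the U2 snRNP, and Rbm25 and Son, which encode proteins of nuclear speckles. All 10 were among the 17621 genes tested for expression. The splicing table listed 37 events in 8 of these genes among 40961 events in all, and 27 of the 37 had enough junction counts to be tested. Sf3a1 and Sf3b3 had no listed event, and the 1 event of Sf3b2 was not tested.

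The 6 libraries, 3 control and 3 L-DL KD, came from the hippocampus of C57BL/6 J mice, all male and of wild-type genotype before injection. Control mice received adeno-associated virus with a control shRNA, and L-DL KD mice received virus with shRNAs against L-DL, the long isoform of hnRNP DL. Both were injected into CA1 on both sides when the mice were 8 weeks old. The L-DL shRNAs were driven by the H1 promoter, which is not specific to a cell type, and the control virus had the higher titre. The controls are called wild type in the sample labels. The comparison asks whether the RNA of factors that place U2 snRNP on the intron differed when L-DL was targeted.

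In splicing, the protein SF1 recognises the branch point and U2AF binds the 3′ end of the intron, its large subunit (U2af2) on the polypyrimidine tract and its small subunit (U2af1) on the AG. SF1 then gives way to U2 snRNP, whose SF3B subunits, SF3B1 foremost, hold the branch point. Nuclear speckles store many of these proteins, and SON and SRRM2 form their scaffold. Many genes of splicing factors carry alternative exons of their own, some of which lead to nonsense-mediated decay (NMD), the removal of transcripts with an early stop codon.

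U2af1 is on chromosome 17, minus strand, 31647081-31658892 (GRCm38). The gene has a pair of 67-nt coding exons that GENCODE M21 lists singly as exon 3 of coding transcripts and together in U2af1-208, a transcript of the NMD class, and in U2af1-205, which has no coding sequence. The pair is shown because the splicing values of U2af1 turn on it. The upstream exon is at 31652502-31652568 (exon 3 of transcript U2af1-202) and the downstream exon at 31651646-31651712 (exon 3 of U2af1-201). Both are given 5′ to 3′ on the coding strand, from the GENCODE transcripts, with the bases that differ between them in capitals.
U2af1 upstream exon 3: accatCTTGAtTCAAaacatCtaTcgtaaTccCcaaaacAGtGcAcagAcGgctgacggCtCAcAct
U2af1 downstream exon 3: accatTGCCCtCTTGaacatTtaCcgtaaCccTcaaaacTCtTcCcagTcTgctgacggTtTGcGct
The exons share 44 of 67 bases (65.7%) and differ at 23. Since they have the same length, either keeps the same reading frame.

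The libraries had 16052529 to 17913064 reads counted on genes and 6760349 to 7939931 junction counts. Counts were scaled for library size (CPM) by edgeR's TMM method. Hnrnpdl, the gene of L-DL, had 2862, 3120 and 2689 counts in the controls, and in the libraries labelled L-DL KD it had 3939, 2680 and 2904. The log2 fold change was 0.03 ± 0.12 (SE, adjusted p = 0.898, edgeR), and gene counts do not separate its isoforms. The study assessed the knockdown as L-DL protein, by immunoblot of injected hippocampus, and reports it as reduced. Fold changes below are of L-DL KD over control, and each p-value comes from a quasi-likelihood fit in edgeR, adjusted by Benjamini and Hochberg's method over all genes or all events. All 12 microglial genes of a marker list were higher, with a summed level of 1440 to 1799 CPM in the controls and 3018 to 3931 CPM in L-DL KD. Of 12 neuronal genes, 9 were lower and 2 higher, with sums of 9714 to 10235 CPM and 6451 to 7189 CPM. Of 8 astrocyte genes 4 were lower and 1 higher, with sums of 8022 to 8166 CPM and 6246 to 7332 CPM. Of 8 oligodendrocyte genes 2 were higher, with sums of 7628 to 8146 CPM and 6603 to 9660 CPM. Of 8 genes that mark hippocampal regions, 4 were lower and 2 higher. No marker was at 0 in any group. In bulk tissue, fewer cells of a type and less RNA per cell cannot be told apart, and the part of these shifts in the results below was not tested.

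Among the 10 genes, U2af2 and Sf1 fell and none rose. Over all genes tested, 30.5% were called, of which the falls made up 15% of the genes and the rises 15.6%, so that 2 of 10 is near the background. The other 8 did not pass the test, with log2 fold changes from -0.13 to 0.26. The median over the 10 genes was -0.04, against 0.01 over all genes.

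Per kilobase of annotated exon, Sf1 had the highest level in the controls, 40.1 ± 0.467 CPM per kb (SD, n = 3), followed by U2af2 with 37.7 ± 1.79. Sf3b2 (33.6 ± 0.923) and Sf3b1 (32.5 ± 2.06) came next and their libraries overlapped, as did those of Son (27.1 ± 2.05) and Puf60 (25.3 ± 0.27). Sf3a1 (17.8 ± 0.762) and U2af1 (12.8 ± 0.791) were lower and apart from their neighbours. Rbm25 (10.2 ± 0.842) and Sf3b3 (9.29 ± 0.49) had the lowest levels and overlapped. The subunits of U2AF thus differed in level per length, with the large subunit above the small one in every control library. These levels depend on the annotated length, which counts all exons of all transcripts of a gene, 17376 nt for Rbm25 and 2598 nt for U2af1. Copies of U2af1 and U2af2, described below, could share reads with them, and their part in these levels was not tested.

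**Figure D1:**
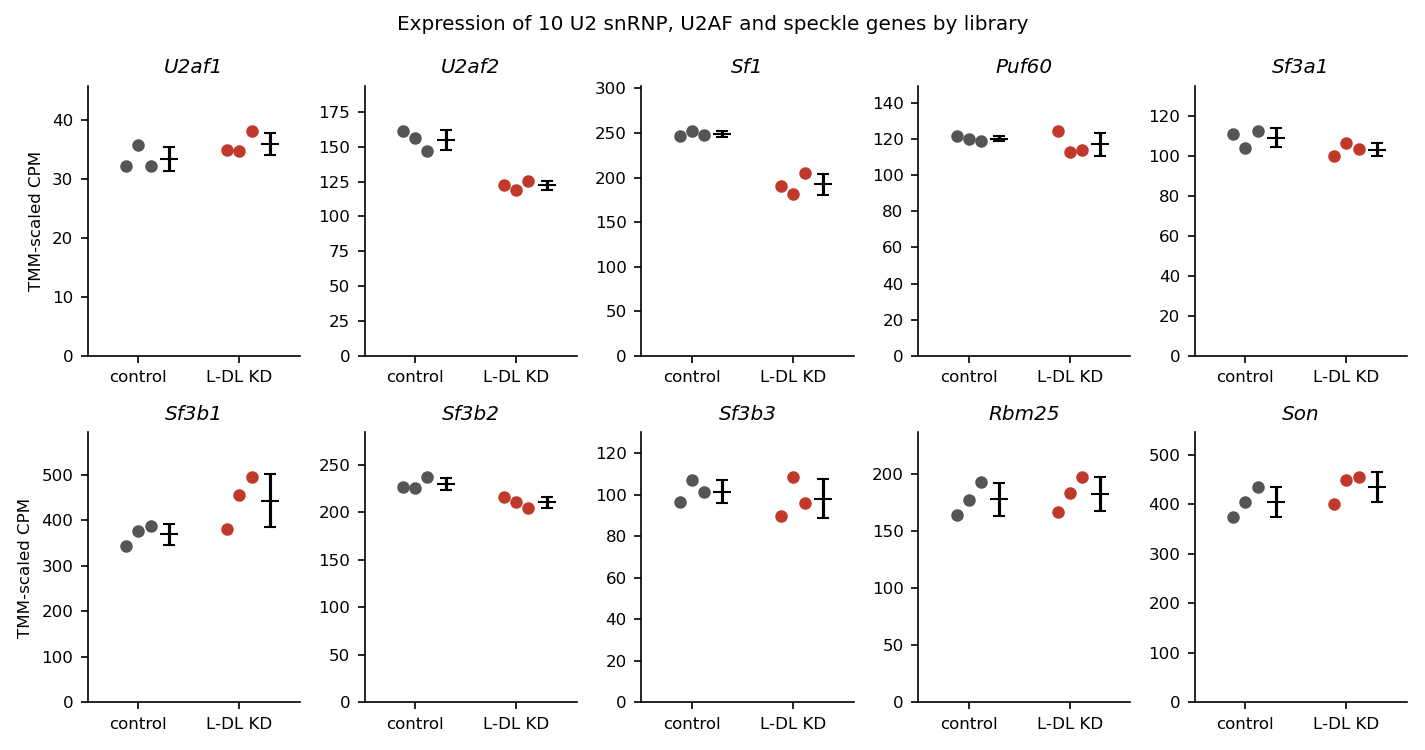
TMM-scaled CPM (y axes, each from 0) of the 10 genes in 3 control libraries (grey) and 3 L-DL KD libraries (red), 1 point per library, with the mean and SD in black. The groups lie apart for U2af2, Sf1 and Sf3b2, and overlap for the other 7 genes.

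U2af2 (ENSMUSG00000030435, chromosome 7, 5062143-5079938, plus strand), the polypyrimidine-binding subunit of U2AF, had 2616, 2661 and 2312 counts in the controls and 2221, 2123 and 2102 in L-DL KD. These were 161, 157 and 147 CPM against 122, 119 and 125 CPM, and every L-DL KD library was below every control. The log2 fold change was -0.34 ± 0.07 (SE, adjusted p = 0.00628, edgeR), and the mean level fell by 21.1%, from 155 ± 7.36 CPM to 122 ± 3.12 CPM (SD, n = 3).

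Sf1 (ENSMUSG00000024949, chromosome 19, 6363690-6378030, plus strand), the branch point binding protein, had 4006, 4288 and 3901 counts in the controls and 3455, 3243 and 3438 in L-DL KD. In CPM this was 247, 252 and 248 against 190, 182 and 205, again without overlap. The log2 fold change was -0.37 ± 0.07 (SE, adjusted p = 0.00485, edgeR). Both U2af2 and Sf1 kept their direction and their call in all 11 alternative fits, in which their adjusted p ranged from 0.000354 to 0.0317 for U2af2 and from 5.26e-05 to 0.0253 for Sf1.

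U2af1 (ENSMUSG00000061613), the small subunit of U2AF, did not follow the large one. It had 32.2, 35.7 and 32.1 CPM in the controls and 34.9, 34.7 and 38.1 CPM in L-DL KD, and the groups overlapped. Its log2 fold change was 0.11 ± 0.09 (SE, adjusted p = 0.398, edgeR). Puf60, a relative of U2AF's large subunit that also binds pyrimidines, had 121, 120 and 119 CPM against 124, 113 and 114 CPM, with a log2 fold change of -0.04 ± 0.07 (SE, adjusted p = 0.705, edgeR). The controls of Puf60 lay within the range of the L-DL KD libraries.

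Sf3b1 (ENSMUSG00000025982, chromosome 1), the subunit that clamps the branch point, had 343, 377 and 388 CPM in the controls and 381, 455 and 494 CPM in L-DL KD. The first L-DL KD library lay within the control range and the other two above it. That library also stood apart over all genes, with a chi-square per degree of freedom of 25.6 and 33.3 against the other L-DL KD libraries, where these differed by 10.2 and the controls by 7.1 to 12.5, and it had the highest summed level of oligodendrocyte markers, 9660 CPM. The part of this in the value of Sf3b1 was not tested. The log2 fold change was 0.26 ± 0.10 (SE, adjusted p = 0.089, edgeR) and missed the threshold. Without L-DL KD replicate 1 it was 0.37 with an adjusted p of 0.00737, and over all alternatives the adjusted p ranged from 0.00737 to 0.26.

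Sf3b2 (ENSMUSG00000024853), a further SF3B subunit, had 227, 225 and 237 CPM in the controls and 216, 211 and 204 CPM in L-DL KD. All L-DL KD libraries were lower, but the log2 fold change of -0.13 ± 0.06 did not pass (adjusted p = 0.159, edgeR). Groups lay apart for 47.2% of all genes tested and for 3 of these 10. Sf3b3 (ENSMUSG00000033732), the large scaffold subunit of SF3B, had 96.2, 107 and 101 CPM against 89.9, 108 and 95.7 CPM, and Sf3a1 (ENSMUSG00000002129), a subunit of SF3A, had 111, 104 and 113 against 99.8, 106 and 103. The groups of both genes overlapped, with log2 fold changes of -0.05 ± 0.09 for Sf3b3 and -0.08 ± 0.07 for Sf3a1 (SE, adjusted p = 0.694 and 0.396, edgeR).

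Of the speckle genes, Son (ENSMUSG00000022961), the scaffold protein, had 374, 405 and 435 CPM in the controls and 400, 449 and 454 CPM in L-DL KD. Rbm25 (ENSMUSG00000010608), an RNA-binding splicing regulator, had 164, 177 and 193 CPM against 167, 183 and 197 CPM. Both overlapped between the groups, and their log2 fold changes were 0.10 ± 0.08 for Son and 0.04 ± 0.09 for Rbm25 (SE, adjusted p = 0.391 and 0.795, edgeR).

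Of 51 further genes of the same pathway, 50 were tested, and 7 were higher and 6 lower, 13 called in all where 30.5% of all genes were. The number higher was 2, 2 and 1 without control replicates 1, 2 and 3, and 3 and 4 without L-DL KD replicates 2 and 3, and the number lower was 3 without control replicate 1 or 2. In the U2 snRNP itself, 1 of 8 other genes was higher. This was Sf3a2, a subunit of SF3A, with a log2 fold change of 0.36 ± 0.09 (SE, adjusted p = 0.0224, edgeR). Of 14 genes of U2-associated proteins, Prpf19, a ubiquitin ligase of the spliceosome, was higher (0.22 ± 0.07) and Rbm17, which binds U2 proteins, was lower (-0.24 ± 0.07).

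Among genes of U2AF relatives and of proteins that bind pyrimidine-rich or nearby intron sequence, 3 were higher and 2 lower of 8 tested, where 15.6% and 15% of all genes were. Ptbp1, which binds pyrimidine tracts and is low in neurons, had a log2 fold change of 0.58 ± 0.11, and Ptbp2, its neuronal relative, had -0.35 ± 0.07. Zrsr1, a relative of U2af1, was lower as well (-0.42 ± 0.09). Qk, an RNA-binding protein of glia, had 0.21 ± 0.06, and 1 further gene was higher.

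Of the 8 genes of the Sm ring, the protein ring shared by the spliceosomal snRNPs, Snrpn was lower and Snrpd3 higher. Snrpn, the form of SmB found in neurons, had 82.8, 84.3 and 82.4 CPM in the controls and 52.2, 42.7 and 40.7 CPM in L-DL KD, a log2 fold change of -0.88 ± 0.10 (SE, adjusted p = 0.000647, edgeR). Snrpd3 had 0.32 ± 0.09. Of 12 other speckle genes, Srsf2, which encodes SC35, was higher (0.40 ± 0.10), and Srrm1 and Rnps1, proteins of the spliceosome and the exon junction, were lower (-0.24 ± 0.06 and -0.23 ± 0.06). The other 9 did not pass.

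**Figure D2:**
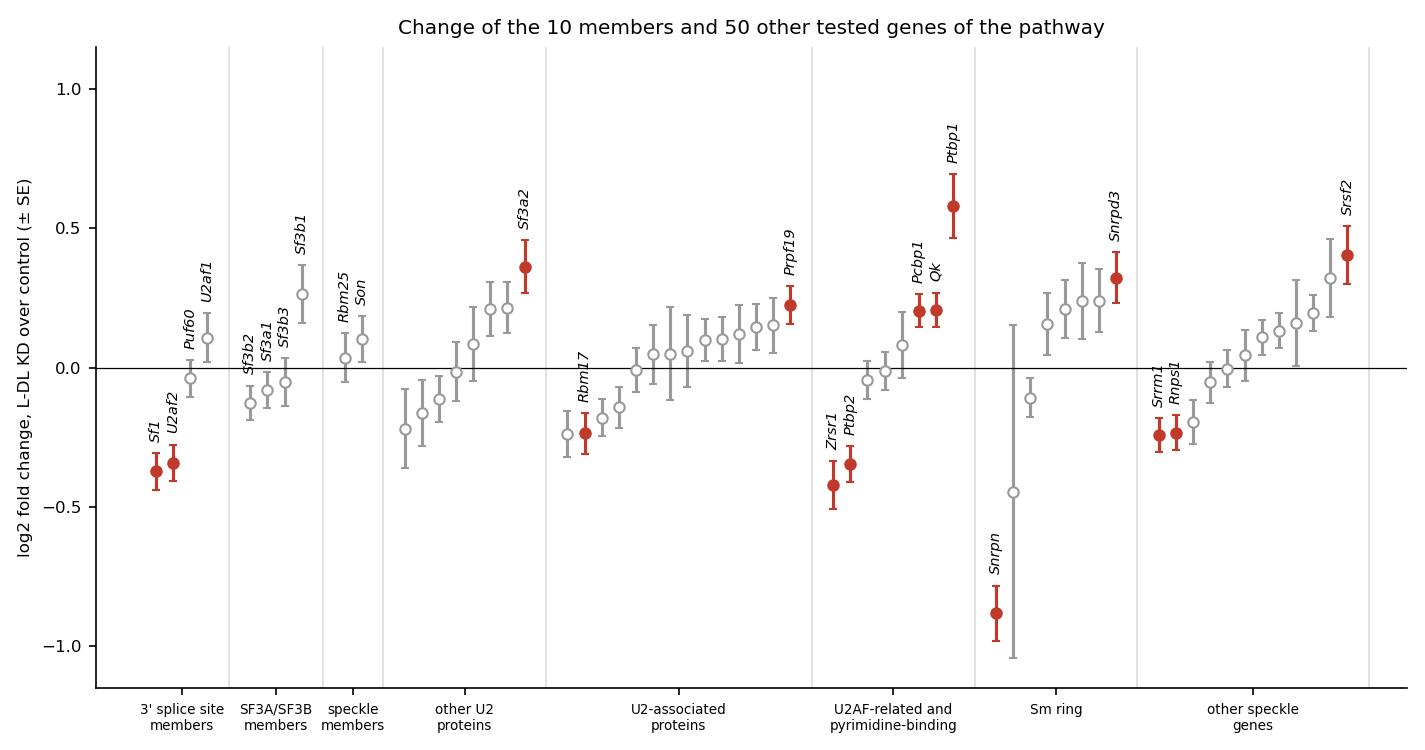
Log2 fold change of L-DL KD over control with its SE (y axis) for the 10 members, by role, and 50 other tested genes of the pathway. Filled red points pass the test (adjusted p under 0.05, edgeR), open grey points do not, and the red points lie on both sides of 0, from -0.88 for Snrpn to 0.58 for Ptbp1.

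Splicing was measured as percent spliced in (PSI), the share of the form that includes a segment, here from 0 to 1. The splicing table names its groups only by number, and the first was taken as L-DL KD because its PSI difference is the first minus the second group, which is how the study defines its PSI change. The libraries of a group carry no replicate number there and are given in the order of the table. None of the 27 tested events passed an adjusted p under 0.05 or an unadjusted p under 0.001, where 0.255% and 0.977% of all 18829 tested events did. At an unadjusted p under 0.05 there were 6 of 27, against 13.3% of all events, and in 6 of 27 the groups lay apart, against 18.4%. Of these 6, 4 were U2af1 events that share junction counts. The median absolute PSI change was 0.0201 over the 27 events and 0.0297 over all.

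The U2af1 exon pair was measured on 207 to 305 junction counts per library. Counts that join the upstream exon to exons 2 and 4 were 67, 107 and 116 in the controls and 63, 63 and 61 in L-DL KD, while those of the downstream exon were 140, 137 and 129 against 187, 228 and 244. The PSI of the upstream exon was thus 0.324, 0.439 and 0.473 in the controls and 0.252, 0.216 and 0.2 in L-DL KD. Every L-DL KD library was below every control, with means of 0.412 ± 0.0784 and 0.223 ± 0.0266 (SD, n = 3). The change in the log2 odds of the upstream exon was -1.30 ± 0.35 (SE, unadjusted p = 0.00298, adjusted p = 0.144, edgeR). It kept its direction in all 9 alternative fits, whose adjusted p ranged from 0.128 to 0.397. The downstream exon had more counts in each L-DL KD library than in any control.

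Skipping of this whole region of U2af1 was measured on few counts. The junction from exon 1 straight to exon 4, without exon 2 or either exon 3, had 15, 13 and 6 counts in the controls and 1, 4 and 2 in L-DL KD. Measured against this junction, the PSI of the downstream exon 3 was 0.721, 0.742 and 0.818 in the controls and 0.98, 0.934 and 0.962 in L-DL KD (unadjusted p = 0.00157, adjusted p = 0.124, edgeR). This was the smallest p among the events of the 10 genes, and the groups lay apart. The PSI of exon 2 (31654979-31655066) against the same junction was 0.55, 0.676 and 0.759 in the controls and 0.954, 0.874 and 0.91 in L-DL KD (adjusted p = 0.247, edgeR). Both rest on the same low counts of skipping, with 34 to 86 counts per library in all. Exon 2 was also set against the downstream exon 3, each by its junctions to exons 1 and 4. Its PSI was then 0.321, 0.42 and 0.412 in the controls and 0.303, 0.328 and 0.283 in L-DL KD, and the groups overlapped. Few of these counts joined exon 2 to exon 4 (0 to 5 per library) or exon 1 to the downstream exon 3 (0 to 2). Most could thus also come from transcripts with both exons.

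Copies of U2af1 bear on these counts. The processed pseudogene Gm10232 is 99.7% identical to U2af1 over 720 nt and had 45 to 63 counts in the controls and 62 to 81 in L-DL KD. It matches the downstream exon at 66 of 67 bases and the upstream exon at 43, so that reads of the downstream form, more than those of the upstream form, could be shared with it. The pseudogene has no introns, and the part of it in the junction counts was not tested. U2af2 has a similar copy, Gm5846, with 22 to 48 counts.

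**Figure D3:**
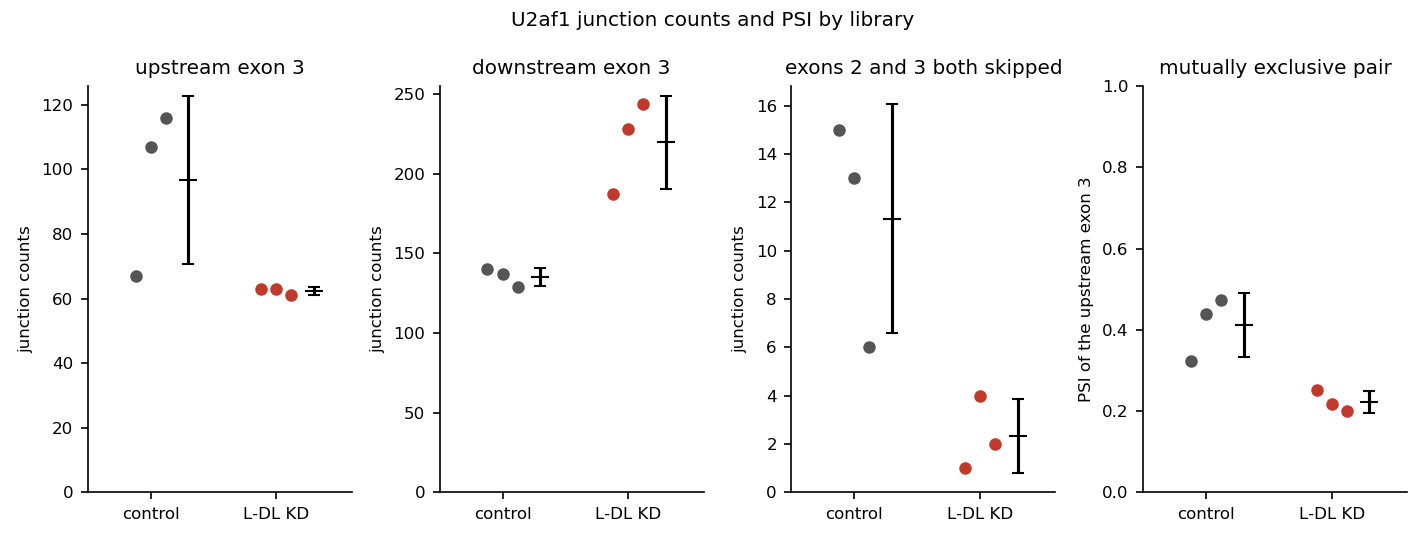
Junction counts of U2af1 (first 3 panels, y axes from 0) and PSI of the upstream exon 3 (last panel) in 3 control (grey) and 3 L-DL KD libraries (red), with the mean and SD in black. The upstream exon has 61 to 63 counts in L-DL KD, below all controls, and the downstream exon 187 to 244, above all controls.

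Sf1 had 7 listed events, of which 4 were tested. A 205-nt coding exon near the 3′ end of the gene (chromosome 19, 6375658-6375862, plus strand, exon 13 of Sf1-203) is shown because it was the only tested Sf1 event in which the groups lay apart. Its length is not a multiple of 3, so that including it shifts the reading frame.
Sf1 exon 13: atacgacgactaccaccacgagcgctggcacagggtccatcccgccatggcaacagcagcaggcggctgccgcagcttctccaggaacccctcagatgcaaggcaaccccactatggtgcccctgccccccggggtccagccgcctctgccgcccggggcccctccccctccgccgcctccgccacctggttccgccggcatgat
Inclusion counts of this exon were 176, 177 and 146 in the controls and 95, 101 and 107 in L-DL KD, with 113, 134 and 128 and 136, 114 and 134 counts of skipping. PSI was 0.438, 0.398 and 0.363 in the controls and 0.259, 0.307 and 0.285 in L-DL KD. The inclusion counts were lower in every L-DL KD library and the skipping counts overlapped. The change in log2 odds was -0.75 ± 0.31 (SE, unadjusted p = 0.0321, adjusted p = 0.338, edgeR), and it had the same sign in all 9 alternative fits.

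U2af2 had 5 listed events and 4 tested. An alternative 5′ splice site lengthens exon 10 of transcript U2af2-209 by 12 nt (chromosome 7, 5075228-5075239, plus strand), a coding extension that keeps the frame. It is shown, in capitals at the end of the exon, since it is the best-covered alternative segment of U2af2 at an intermediate level.
U2af2 exon 10, long form: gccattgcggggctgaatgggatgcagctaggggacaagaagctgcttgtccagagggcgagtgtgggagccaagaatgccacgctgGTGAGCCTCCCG
PSI of the extension was 0.19, 0.193 and 0.2 in the controls and 0.234, 0.224 and 0.168 in L-DL KD. The groups overlapped (adjusted p = 0.918, edgeR). A 190-nt extension at a 3′ splice site had 8 to 37 counts per library and PSI of 0.238, 0.138 and 0.115 against 0.778, 0.098 and 0.13. Its higher mean in L-DL KD came from 1 library with 8 counts, and the change turned from 0.44 to -0.54 in log2 odds without that library.

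In Puf60, a 191-nt exon, exon 9 of transcript Puf60-202, was almost always included, with PSI of 0.994, 0.997 and 1 against 0.987, 0.975 and 0.977. Its groups lay apart, on 2, 1 and 0 counts of skipping in the controls and 5, 9 and 8 in L-DL KD (unadjusted p = 0.00445, adjusted p = 0.168, edgeR). The PSI change was -0.0176, and -0.0089 without effective lengths.

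In the SF3B genes, Sf3b1 had a retained intron of 1813 nt and, within it, a 56-nt exon of an NMD transcript (exon 5 of Sf3b1-208). PSI of the intron was 0.551, 0.462 and 0.478 in the controls and 0.37, 0.47 and 0.557 in L-DL KD, and PSI of the exon was 0.132, 0.176 and 0.065 against 0.0996, 0.0919 and 0.187. Both overlapped between the groups (adjusted p = 0.896 and 0.999, edgeR), and both are measured against the same skipping counts.

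In Son, an 80-nt exon of NMD transcripts had PSI of 0.268, 0.202 and 0.251 in the controls and 0.224, 0.262 and 0.249 in L-DL KD. The means were 0.24 in the controls and 0.245 in L-DL KD (adjusted p = 0.981, edgeR). A 53-nt extension at a 3′ splice site had PSI of 0.445, 0.443 and 0.564 against 0.56, 0.438 and 0.388, and a 2676-nt extension at a 5′ splice site had 0.703, 0.909 and 0.924 against 0.75, 0.748 and 0.733. For both the groups overlapped (adjusted p = 0.924 and 0.592, edgeR). The PSI change of the longer extension was -0.102, and -0.0599 without effective lengths. Rbm25 had 9 events, 5 of them tested, of which 1 was at an intermediate level. This was a retained intron of 3300 nt with PSI of 0.276, 0.405 and 0.467 in the controls and 0.45, 0.448 and 0.551 in L-DL KD (adjusted p = 0.622, edgeR), and the groups overlapped. Son shares 103 nt of exon with Donson on the opposite strand, Rbm25 166 nt with Gm29361 and Sf3b3 188 nt with Cog4. In the same way, Sf1 shares 70 nt with Gm14966 and Sf3b2 194 nt with AC125059.3. The sources used here do not say whether counting used strand.

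Another 12 tested events, which the rule did not select for description, had PSI changes from -0.0461 to 0.0438 and unadjusted p-values from 0.0342 to 0.966. In 1 of them, named after its values were seen, the groups lay apart. This was the U2af1 upstream exon 3 against transcripts that join exon 2 to exon 4, with PSI of 1, 1 and 0.988 in the controls and 0.978, 0.978 and 0.894 in L-DL KD, on 0, 0 and 1 counts of skipping against 1, 1 and 5 (adjusted p = 0.345, edgeR). The 10 events that were not tested had too few counts, or almost no counts of one form.

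**Figure D4:**
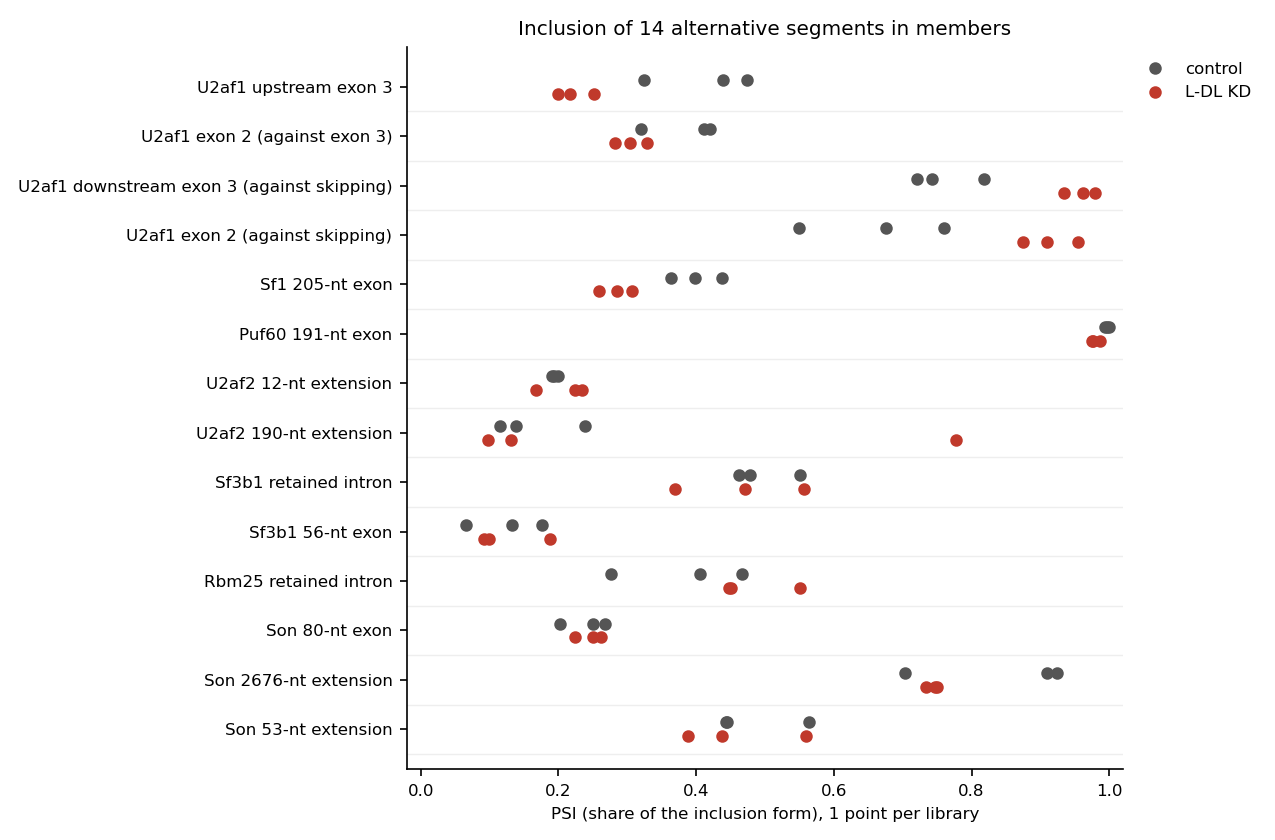
PSI (x axis, 0 to 1) of 14 alternative segments of the members in 3 control (grey) and 3 L-DL KD libraries (red), 1 point per library. The groups lie apart for the U2af1 upstream exon 3, for both U2af1 segments measured against skipping, for the Sf1 205-nt exon and for the Puf60 191-nt exon, and overlap for the other segments.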

How the data were processed

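Oligo(dT)-enriched RNA of hippocampus had been sequenced in 3 control and 3 L-DL KD libraries. The authors deposited the count of reads on each Ensembl gene, not normalized, and rMATS junction counts with the effective lengths of both forms (their own p-values were not used, and their PSI and PSI differences served only to check the recomputed PSI and the order of the groups). The submitters' processing notes name Bowtie 1.1.2, HISAT2 2.1.0, HTSeq 0.6.1 and mm10, and the authors aligned reads to GRCm38. In the deposited table, a gene count and an inclusion or skipping count per library were used.

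Genes that reached 10 counts in 3 or more libraries entered the expression test, a quasi-likelihood fit in edgeR (version 4.0.16, R 4.3.3) after TMM scaling. For PSI, each form's count was divided by its effective length, and the inclusion form was taken as a share of the total. Junction counts were tested with edgeR on 12 columns, with library effects, an effect of inclusion and its change in L-DL KD. This used events whose counts averaged 20 or more per library, with an average of 1 or more for each form. Both scripts were tested on simulated data. Calls were made at a Benjamini-Hochberg adjusted p under 0.05, and for events also at an unadjusted p under 0.001. The labels do not say that the samples of a group came from separate animals, so p-values measure only the spread between these samples, which may be technical.

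Exons were annotated and their sequences cut from GENCODE M21 (GRCm38). Copies were sought with BLAST (version 2.17.0) at 95% identity over at least 150 nt. Alternatives were library size scaling, DESeq2 (version 1.42.0), limma (version 3.58.1) with a pseudocount of 0.5, other count filters, PSI without lengths, a block by replicate number and fits without each library in turn. Described one by one were events past either call rule, the event with the smallest p and groups apart for each gene, events with a mean PSI of 0.1 to 0.9 and U2af1 mutually exclusive exons. 1 tested event that this rule selects is not reported here. Other pathway genes were named where they passed the test, at most 4 per list. The 10 genes and all lists were chosen with earlier results of these data known.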

Additional observations from a re-analysis of the deposited data

How the results depend on the processing

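U2af2 and Sf1 stayed lower and called in every alternative fit, and no member event was called in any (edgeR or limma). Members called higher numbered 0, but 1 (Sf3b1) without L-DL KD replicate 1 and 1 with the replicate block. With the block, Sf3b1 had a log2 fold change of 0.26 and an adjusted p of 0.0493, and 2 other pathway genes were higher in place of 7. The labels do not say whether replicate numbers pair the samples. The correlations of same-numbered deviations were 0.06, 0.16 and -0.14, and those of differently numbered ones ranged from -0.22 to 0.16. With 3 libraries per group, these values cannot exclude a pairing. For splicing, no paired analysis was possible because the columns carry no replicate numbers. Without a filter on low counts, 4 other pathway genes were higher. Leaving out 1 library at a time gave 0 to 1 members higher, 1 to 10 other pathway genes higher and 3 to 7 lower, 1770 to 3236 genes higher and 1676 to 3241 lower over all, and 0 to 52 events called over all, against 48. limma called 0 events, with 2469 of 18829 at an unadjusted p under 0.05, 6 of them among the 27 member events.

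Among values that were not called, signs changed only with 1 library left out. Rbm25 then ranged from -0.0229 to 0.0982 and Sf3b3 from -0.12 to 0.00964 in log2 fold change. In log2 odds, the Son 80-nt exon ranged from -0.11 to 0.15, the Son 53-nt extension from -0.41 to 0.10, the Sf3b1 56-nt exon from -0.40 to 0.41, the Sf3b1 intron from -0.43 to 0.10 and the U2af2 190-nt extension from -0.54 to 1.16. Without effective lengths, the PSI change of the Puf60 191-nt exon was -0.0089 in place of -0.0176 and that of the Son 2676-nt extension -0.0599 in place of -0.102. Low junction counts limit the U2af1 skipping junction, the skipping of the Puf60 191-nt exon and the U2af2 190-nt extension.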
